A study of Mus musculus with 20 samples.

Results

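The Reg genes encode a family of small secreted proteins of the C-type lectin fold, and their transcripts were followed here in intestinal tissue of 20 mice, with 1 microarray per mouse. The members were all genes of the array design named Reg1, Reg2, Reg3a, Reg3b, Reg3d, Reg3g or Reg4, which gave 7 genes and 8 probes among 25043 named genes, Reg3d being the gene with 2 probes. All 7 passed the detection filter in both comparisons. All mice were of the C57BL6/j strain and, per the study's methods, 8 to 12 weeks old.

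The 6 Cre control mice carried a Cre recombinase that tamoxifen switches on and that the Villin promoter restricts to epithelial cells of the gut. The 6 BRAFV600E mice carried the same Cre and an inducible allele of the mutant kinase. Both groups received 3 daily doses of 2 mg tamoxifen and were sampled 3 days after the last one. The 4 MEKi mice received 2 daily doses of 1 mg tamoxifen and then 3 daily injections of the MEK inhibitor PD184352, and the 4 Vehicle mice received the carrier in its place. That these 8 mice carry the mutant allele comes from the study's text, not from the labels, and the labels' treatment text matched none of the 4 groups and was not used. The first comparison asks what the mutant kinase changes within days, and the second what depends on MEK, the kinase directly below BRAF.

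Reg3b and Reg3g are antibacterial lectins of the gut surface: Reg3g binds the peptidoglycan of Gram-positive bacteria and helps to keep bacteria away from the epithelium. Their transcription in enterocytes and Paneth cells rises when microbes are sensed, through MyD88 and through interleukin-22 and STAT3. Reg1 and Reg2 were first described in the exocrine pancreas, where they rise on injury, and Reg1 is also made in the small intestine. Reg3a and Reg3d are less studied Reg3 members that are found in both organs, and Reg4 is made by enteroendocrine and other secretory cells of the gut.

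In the RefSeq annotation of mouse build GRCm38.p6, 6 of the members lie in 1 cluster of 98.0 kb on chromosome 6, from 78370885 to 78468874, in the order Reg3b, Reg3d, Reg3a, Reg2, Reg1 and Reg3g. Reg4 lies apart on chromosome 3, from 98222138 to 98236748. Because the members are related, the probes decide whether they are measured apart. The first 30 bases of each 60-base probe are given below as the array design has them, with probe positions on build mm9.
Reg3b (chr6:78323323-78323382, + strand): gtgaagactcacctagaaaaagcattttct
Reg3g (chr6:78416420-78416479, − strand): gagtacagaattgacatcatgggttgatat
Reg3a (chr6:78333635-78333694, + strand): cccatgacaagggatgaaatacaagaattc
Reg3d, first probe (chr6:78325868-78325927, − strand): gtgtattctctggggactctggcctaagga
Reg3d, second probe (chr6:78326006-78326065, − strand): ggccagttctgatttcaactgcctgaaagt
Reg1 (chr6:78378527-78378586, + strand): ggaccatctatcaaaagcaaattagatcct
Reg2 (chr6:78357959-78358018, + strand): acagtactcctttgtctgcaagttcagagc
Reg4 (chr3:98037005-98040251, + strand): gcattgcgctgagatgaaccccaaggataa
Between probes of different members the longest shared run was 8 bases, and no ungapped placement matched more than 27 of the 60 bases. Whether a probe also binds the full transcript of another member, and whether it lies in an exon or a UTR, was not analysed here.

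The stretches before the transcription start show which members resemble each other in front of the gene. Over the 250 bases before the start, Reg3b and Reg3g were 69.2% identical in a global alignment and Reg1 and Reg2 62.4%, while the other 19 pairs ran from 51.6% to 59.6%. The last 140 bases before the start of these 4 genes follow (RefSeq, GRCm38.p6), with capitals for the letters TATAAAA and, in Reg3b, for a match to TTCNNNGAA, the pattern bound by STAT factors.
Reg3b (chr6:78370745-78370884, + strand): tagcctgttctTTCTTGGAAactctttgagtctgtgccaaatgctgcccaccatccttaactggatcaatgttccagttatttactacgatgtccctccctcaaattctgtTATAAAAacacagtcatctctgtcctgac
Reg3g (chr6:78468875-78469014, − strand): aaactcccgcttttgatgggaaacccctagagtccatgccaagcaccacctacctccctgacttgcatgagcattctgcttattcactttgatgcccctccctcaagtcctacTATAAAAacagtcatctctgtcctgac
Reg1 (chr6:78425843-78425982, + strand): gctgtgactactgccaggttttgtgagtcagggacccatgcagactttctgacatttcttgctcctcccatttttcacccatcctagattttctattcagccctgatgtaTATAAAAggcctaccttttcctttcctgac
Reg2 (chr6:78405015-78405154, + strand): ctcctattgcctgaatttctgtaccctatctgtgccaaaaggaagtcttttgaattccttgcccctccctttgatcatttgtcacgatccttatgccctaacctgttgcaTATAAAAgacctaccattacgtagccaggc
The letters TATAAAA began between positions −30 and −27 relative to the start in these 4 genes and were not found before the start of the other 3, and 5.48% of all 32841 promoter windows of 300 bases hold them on either strand. TTCNNNGAA was found in the windows of Reg3b and Reg3d (8.30% of all windows). TGANTCA, the AP-1 pattern, was found in Reg1 alone (7.81% of all windows) and CCGGAAGT, an ETS pattern, in none (3.89% of all windows). Such matches describe the letters and do not show that a factor binds.

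Levels below are log2 processed intensities minus the 75th percentile of the same array, so 0 is the 75th percentile itself, and levels of different probes cannot be set against each other. Between 60.8% and 76.8% of the spots of an array were well above background and none was saturated. Intestinal tissue identity was shown by all 9 of its marker genes (among them Cdx1, Cdx2 and Vil1) lying well above background on all 20 arrays. A pair of arrays stood apart. On Vehicle replicate 2, the mean level of 7 acinar pancreas genes (Cpa1, Cpb1, Ctrb1, Cela2a, Cela3b, Pnlip and Amy2a5) was 7.73, against −4.84 to −4.51 on the other 3 Vehicle arrays, and its 6 distal small intestine genes averaged −3.85, against 0.40 to 1.40. On BRAFV600E replicate 2 the distal genes averaged −5.11, the lowest of all 20 arrays, while its acinar mean of −4.18 lay within the range of the other BRAFV600E arrays (−4.43 to −3.85).

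The mutant kinase was accompanied by lower levels of nearly the whole family. In BRAFV600E, 6 of the 7 members were called lower than in Cre control (limma, adjusted p under 0.05), where 6.55% of all 18868 genes tested were called lower, and 0 were called higher. The median log2 fold change of the 7 was −3.05 and that of all genes tested −0.02. For 4 members (Reg1, Reg2, Reg3a and Reg3d) every BRAFV600E array lay below every Cre control array, as did 3.28% of all genes tested. Reg2, which is in both counts, passed the detection filter through Cre control. It was well above background on 6 of 6 arrays there and on 1 of 6 in BRAFV600E, so its call sets signal against near-background values. In bulk tissue, fewer cells of a type and less RNA per cell cannot be told apart.

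Reg3b, the antibacterial lectin that acts mainly on Gram-negative bacteria, had a level of 6.62 at the lowest, 7.79 at the median and 8.48 at the highest in Cre control. In BRAFV600E the lowest, median and highest were −0.05, 5.26 and 6.66. The groups touched: 5 of 6 BRAFV600E arrays lay below every Cre control array, and replicate 4 at 6.66 lay just inside the Cre control range. Reg3b was 8.29-fold lower (log2 fold change −3.05, SE 0.92, limma adjusted p = 0.0468). Without BRAFV600E replicate 2, the array at −0.05, it was 4.37-fold lower (−2.13, SE 0.45, adjusted p = 0.0144). The call rested on a narrow margin, since 9 of the 12 fits that left out 1 array put its adjusted p between 0.0556 and 0.0899.

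Reg3g, the peptidoglycan-binding lectin, had a pattern close to that of Reg3b. Its levels were 6.56, 7.46 and 8.77 (lowest, median, highest) in Cre control and 1.93, 5.42 and 6.84 in BRAFV600E, again with 5 of 6 BRAFV600E arrays below every Cre control array and replicate 4 as the highest. It was 5.75-fold lower (−2.52, SE 0.70, limma adjusted p = 0.0349), and −1.89 (SE 0.45, adjusted p = 0.0264) without BRAFV600E replicate 2. In 7 of the 12 fits that left out 1 array the adjusted p lay between 0.0507 and 0.0656.

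Reg3a showed the largest fall of the family and the widest spread among mutant mice. The Cre control arrays lay close together, at 4.33, 5.21 and 5.38 (lowest, median, highest). The BRAFV600E arrays ran from −7.22 through a median of 0.80 to 2.66, and on replicate 2, the lowest, the probe was not well above background. No array of either group overlapped the other. The fall was 38.7-fold (log2 fold change −5.27, SE 1.35, adjusted p = 0.0252 by limma), the 3rd largest of the 18868 genes. Leaving out BRAFV600E replicate 2 made the fall smaller and its error tighter, at −3.87 (SE 0.56, 14.6-fold lower, adjusted p = 0.00211).

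By its first probe Reg3d, a Reg3 member known from pancreas and gut, changed less but more evenly than the other called members. Its first probe gave −1.48, −1.09 and −0.71 in Cre control and −2.78, −2.19 and −1.82 in BRAFV600E (lowest, median, highest), without overlap. It was 2.29-fold lower (−1.19, SE 0.18, limma adjusted p = 0.00181). The second, dimmer probe was at −2.40 (SE 0.44, adjusted p = 0.0064 in the limma fit over all probes), also without overlap, and was well above background on 6 of 6 Cre control arrays but on 2 of 6 BRAFV600E arrays. Both probes went the same way, but the SD in BRAFV600E was 0.34 for the first and 1.05 for the second. The first kept its call in all 12 fits that left out 1 array. With no scaling between arrays, where the median of all genes moved to 0.79, Reg3d was at −0.39 and not called (limma adjusted p = 0.274).

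Reg1 and Reg2, the members first known from pancreas, both fell. Reg1 had levels of 3.93, 5.96 and 7.17 (lowest, median, highest) in Cre control and 0.79, 2.32 and 3.57 in BRAFV600E. Its log2 fold change was −3.72 (SE 0.55, 13.2-fold lower, limma adjusted p = 0.00157). Reg2 had levels of −4.21, −2.12 and −0.90 in Cre control, where 6 of 6 arrays were well above background, and of −6.51, −5.81 and −4.66 in BRAFV600E, where 1 of 6 was. Its log2 fold change was −3.43 (SE 0.53, 10.8-fold lower, limma adjusted p = 0.00200), a size and a call that rest on BRAFV600E signals near background. With normexp background correction Reg2 was 3.84-fold lower (−1.94) and Reg1 13.0-fold (−3.70), so the sizes of their falls cannot be set side by side. For both genes Cre control replicate 3 was the lowest control, and still above every BRAFV600E array. The acinar pancreas genes were low in both groups, with summed levels of 0.589 to 0.849 times the array's 75th percentile in Cre control and 0.532 to 0.739 in BRAFV600E. Of the 7 genes, 5 to 7 were well above background on a Cre control array and 4 to 6 on a BRAFV600E array. With the mean of these genes as a covariate Reg1 was at −3.79, Reg2 at −3.84 and Reg3d at −1.21, all still called. Reg3a (−5.10, limma adjusted p = 0.138), Reg3b (−2.54, adjusted p = 0.249) and Reg3g (−2.30, adjusted p = 0.185) kept their direction but not the call. Over all genes, 622 were called in that fit, against 2454 in the reported fit. The acinar mean itself differed between the groups, at −3.82 in Cre control and −4.15 in BRAFV600E, partly from signals near background. That fit therefore cannot tell group and pancreas RNA apart, and the part of pancreas RNA in these falls was not tested.

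Reg4, the member of enteroendocrine and other secretory cells, was the exception. Its levels were 2.36, 2.84 and 3.22 in Cre control and −0.31, 2.20 and 3.04 in BRAFV600E (lowest, median, highest), and the groups overlapped. The log2 fold change of −0.82 (SE 0.46, 95% interval −1.82 to 0.18, limma adjusted p = 0.252) did not pass the test. Without BRAFV600E replicate 2 it was −0.36 (95% interval −0.86 to 0.14, adjusted p = 0.340). With slide as a block it was −1.81 (limma adjusted p = 0.0630), a size that rests on 2 BRAFV600E arrays and was again not called.

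**Figure D1:**
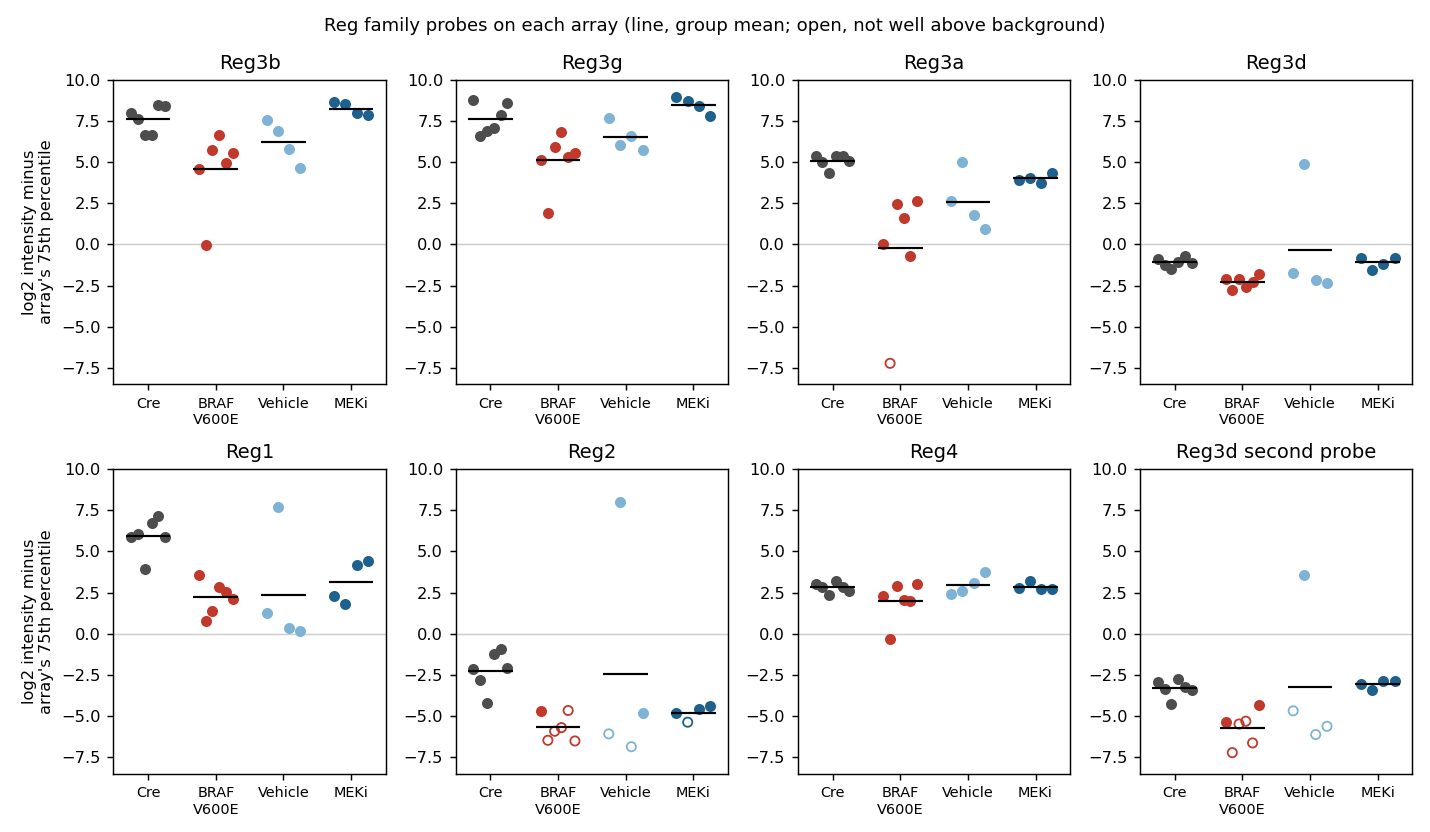
Level of each Reg probe on each of the 20 arrays, as log2 processed intensity minus the array's 75th percentile, by group (Cre control and BRAFV600E, 6 arrays each; Vehicle and MEKi, 4 each). Points are arrays, lines are group means and open points are not well above background. Apart from Reg4, the BRAFV600E points lie below most or all Cre control points, and 1 Vehicle array lies far above the rest for Reg1, Reg2 and both Reg3d probes.

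Reg3a, Reg3b, Reg3g and the distal small intestine genes were lowest on the same 3 BRAFV600E arrays. The distal list holds Slc10a2, Fabp6, Fgf15, Osr2, Cubn and Slc5a12, genes of the ileum or of the distal gut, and its mean ran from −0.86 to 0.53 in Cre control and from −5.11 to −0.79 in BRAFV600E. The 3 BRAFV600E arrays with the lowest distal means (replicates 2, 1 and 5, at −5.11, −3.25 and −2.62) were also the 3 lowest for Reg3a (−7.22, 0.00 and −0.68), for Reg3b (−0.05, 4.55 and 4.95) and for Reg3g (1.93, 5.10 and 5.31). Reg3d went otherwise by its first probe, being lowest on replicates 2, 4 and 5 (−2.78, −2.57 and −2.26), of which replicate 4 had a distal mean of −0.89. By its dimmer second probe the lowest were replicates 2, 5 and 3 (−7.22, −6.63 and −5.48), and replicate 4 was at −5.31. That probe was well above background on 2 of 6 BRAFV600E arrays. Of the 6 distal genes tested, 2 were called lower, where 6.55% of all genes were. They were Slc5a12 (log2 fold change −5.92, SE 1.21, limma adjusted p = 0.00915) and Cubn (−5.31, SE 0.75, adjusted p = 0.00114), which encode a lactate transporter and the vitamin B12 receptor. Slc10a2, Fabp6, Fgf15 and Osr2 were not called, 1 of the 6 was fitted higher and the median of the list was −1.34. The counts of distal genes well above background were 5 to 6 of 6 on a Cre control array and 3 to 6 of 6 on a BRAFV600E array. The mean of 8 proximal small intestine genes was highest on BRAFV600E replicates 2, 5 and 1 (3.03, 2.06 and 2.02), against 0.89 to 1.28 on the other BRAFV600E arrays. Vehicle replicate 2 went otherwise for Reg3a, with a distal mean of −3.85, a proximal mean of 3.89 and the highest Reg3a level of its group (5.02). With the distal mean as a covariate, an alternative chosen after the data had been seen, Reg3a was at −1.35, Reg3b at −0.57, Reg3g at −0.98 and Reg3d at −1.02 (adjusted p = 0.0521), none of them called, while Reg1 (−3.61, limma adjusted p = 0.0360) and Reg2 (−3.75, adjusted p = 0.0253) stayed called. The distal mean itself differed between the groups and holds the 2 called genes Slc5a12 and Cubn, so that fit cannot tell group and gut position apart. Whether this mean reflects gut position, and the part of gut position in the Reg3 result, was not tested.

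**Figure D2:**
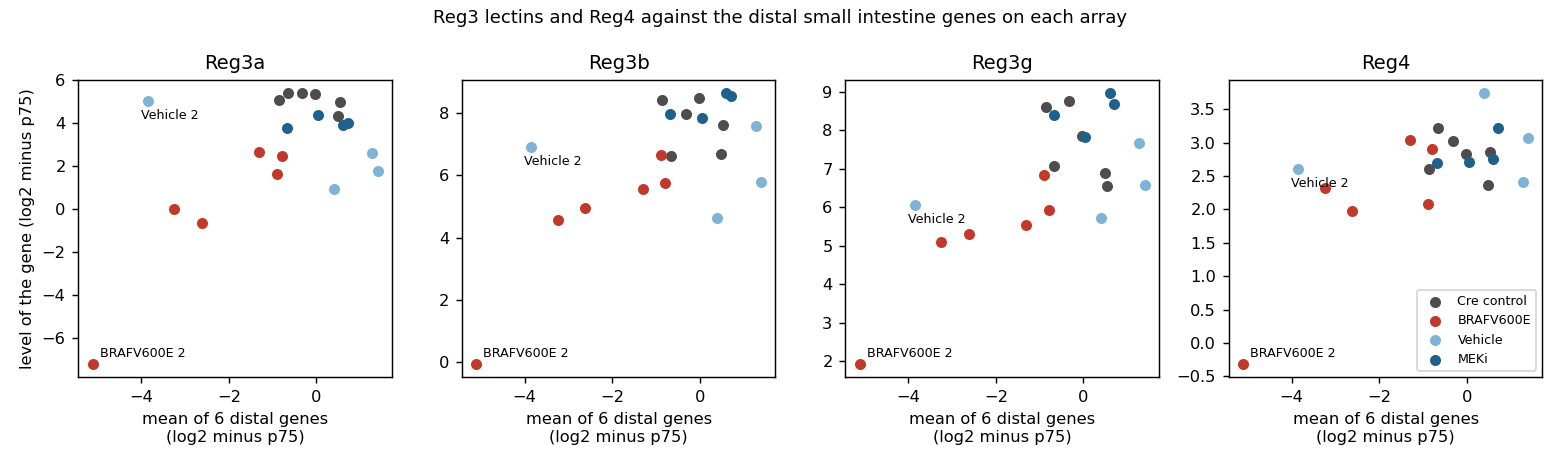
Level of Reg3a, Reg3b, Reg3g and Reg4 against the mean of 6 distal small intestine genes on each array, both as log2 intensity minus the array's 75th percentile (p75). BRAFV600E replicate 2 lies lowest on both axes in each panel, and Vehicle replicate 2 has a distal mean of −3.85 with Reg3 levels inside the range of the other arrays.

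Slides divided the BRAFV600E arrays, with replicates 1 and 2 on the slide that held all 6 Cre control arrays and the other 4 on a second slide. The 4 arrays of the second slide had Reg3a levels of −0.68 to 2.66 and Reg3b levels of 4.95 to 6.66. Within the first slide the falls of the Reg3 lectins were larger, at −8.69 for Reg3a (adjusted p = 0.0191), −5.37 for Reg3b (0.0335) and −4.12 for Reg3g (0.0425, limma). The fit with slide as a block gives the same sizes by construction, because the second slide held no Cre control array. In the same slide Reg1 was at −3.75 (limma adjusted p = 0.0607) and Reg2 at −3.36 (adjusted p = 0.0668), close to their sizes over both slides but without the call. With slide as a block both were called (limma adjusted p = 0.0176 and 0.0239), but there the second slide adds only to the estimate of the spread. The within-slide values, and the sizes with slide as a block, rest on 2 BRAFV600E arrays, 1 of which is replicate 2.

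Under the MEK inhibitor no member passed the test, and 0 of 7 were called in either direction (limma, adjusted p under 0.05), where 1.04% of all 19177 genes tested were called higher in MEKi than in Vehicle. At an unadjusted p under 0.05, 2 members, Reg3b and Reg3g, were higher, as were 9.05% of all genes tested. These 2 were also the members for which every MEKi array lay above every Vehicle array, as did 6.36% of all genes tested. The median log2 fold change of the 7 members was 0.80, and that of all genes tested 0.04.

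Reg3g levels were 7.68, 6.05, 6.57 and 5.71 on Vehicle replicates 1 to 4 and 8.96, 8.68, 8.40 and 7.82 on MEKi replicates 1 to 4. The lowest MEKi array lay just above the highest Vehicle array. In the fit Reg3g was 3.89-fold higher (1.96, SE 0.43, 95% interval 0.96 to 2.96, limma adjusted p = 0.0681). Reg3g passed the test in 3 of 21 alternatives, with normexp background correction (adjusted p = 0.0395), with a trended and robust variance (0.0491, limma) and without Vehicle replicate 1 (0.0348), over a range of adjusted p from 0.0348 to 0.239.

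Reg3b levels were 7.57, 6.91, 5.78 and 4.64 on the Vehicle arrays and 8.63, 8.53, 7.98 and 7.84 on the MEKi arrays. As for Reg3g, the MEKi mice lay close together, with an SD of 0.39 against 1.29 in Vehicle. Its log2 fold change was 2.02 (SE 0.58, 95% interval 0.68 to 3.36, limma adjusted p = 0.140), and it was not called in any of 21 alternatives. All 4 MEKi arrays had all 4 Y-linked genes well above background, but only 2 of 4 Vehicle arrays did, and with their mean as a covariate Reg3b was at 1.52 and Reg3g at 1.31 (limma adjusted p = 0.451 and 0.239). The MEKi and Vehicle arrays lay in different rows of 1 slide, so row and treatment cannot be told apart.

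Reg3a levels were 2.62, 5.02, 1.77 and 0.91 in Vehicle and 3.92, 4.01, 3.75 and 4.35 in MEKi. Every MEKi array lay above Vehicle replicates 1, 3 and 4 and below replicate 2. The log2 fold change was 1.43 (SE 0.77, limma adjusted p = 0.422) over all arrays and 2.24 (SE 0.38, 95% interval 1.36 to 3.12, adjusted p = 0.0356) without Vehicle replicate 2. Reg3a passed the test in 2 of 21 alternatives, this one and the one with the acinar pancreas mean as a covariate (limma adjusted p = 0.0321). Both take out or adjust for the array that stood apart.

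Vehicle replicate 2 dominated the values of Reg1, Reg2 and Reg3d. Reg1 was at 7.68 there and at 1.27, 0.34 and 0.18 on the other Vehicle arrays, beside 2.28, 1.81, 4.16 and 4.42 in MEKi. Reg2 was at 8.03 there and at −6.08, −6.86 and −4.82 on the others, beside −4.83, −5.37, −4.59 and −4.38 in MEKi. Reg3d, by its first probe, was at 4.91 there and at −1.74, −2.15 and −2.36 on the others, beside −0.85, −1.53, −1.19 and −0.80 in MEKi. On the same array all 7 acinar genes were well above background with a summed level of 2080 times the array's 75th percentile, against 3 to 5 genes and sums of 0.394 to 0.426 on the other Vehicle arrays and 4 to 6 genes and sums of 0.422 to 0.579 in MEKi. The part of pancreas RNA in these values was not tested. Over all arrays none of the 3 genes was called, with log2 fold changes of 0.80 (95% interval −2.95 to 4.55) for Reg1, −2.36 (−9.28 to 4.56) for Reg2 and −0.75 (−4.22 to 2.72) for Reg3d. Without that array all 3 were higher in MEKi in the fit, at 2.57 (95% interval 0.96 to 4.18), 1.13 (0.03 to 2.23) and 1.00 (0.45 to 1.54), with limma adjusted p-values of 0.119, 0.286 and 0.0893, so none passed the test. Reg2 was then well above background on 1 of the 3 Vehicle arrays and on 3 of 4 MEKi arrays, so that its value rests on signals near background.

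**Figure D3:**
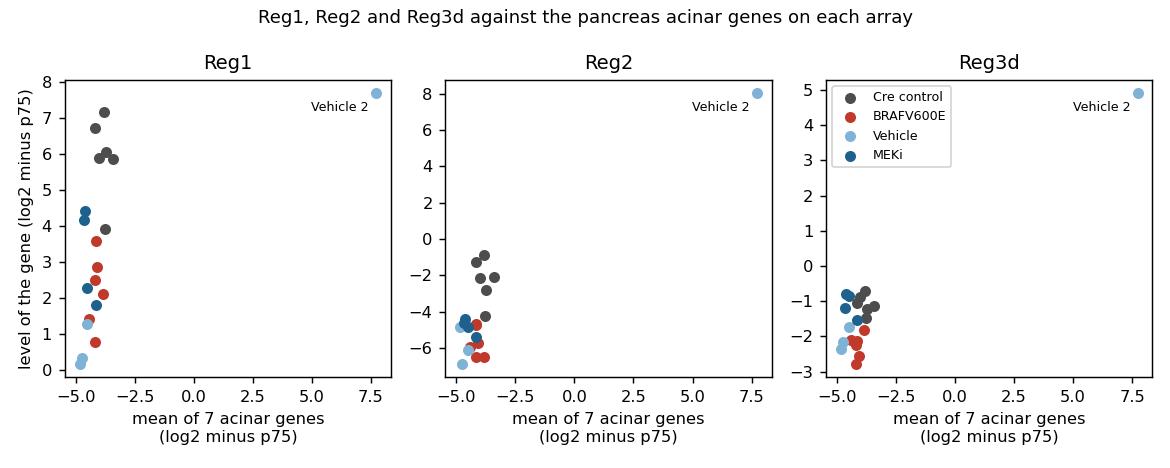
Level of Reg1, Reg2 and Reg3d against the mean of 7 acinar pancreas genes on each array, both as log2 intensity minus the array's 75th percentile (p75). Vehicle replicate 2 lies alone at an acinar mean of 7.73, and among the other 19 arrays, all at or below −3.42, the 3 genes vary between groups.

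Reg4 levels were 2.41, 2.60, 3.07 and 3.74 in Vehicle and 2.75, 3.22, 2.70 and 2.71 in MEKi, with overlap. The log2 fold change was −0.11 (95% interval −0.78 to 0.56, limma adjusted p = 0.902).

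**Figure D4:**
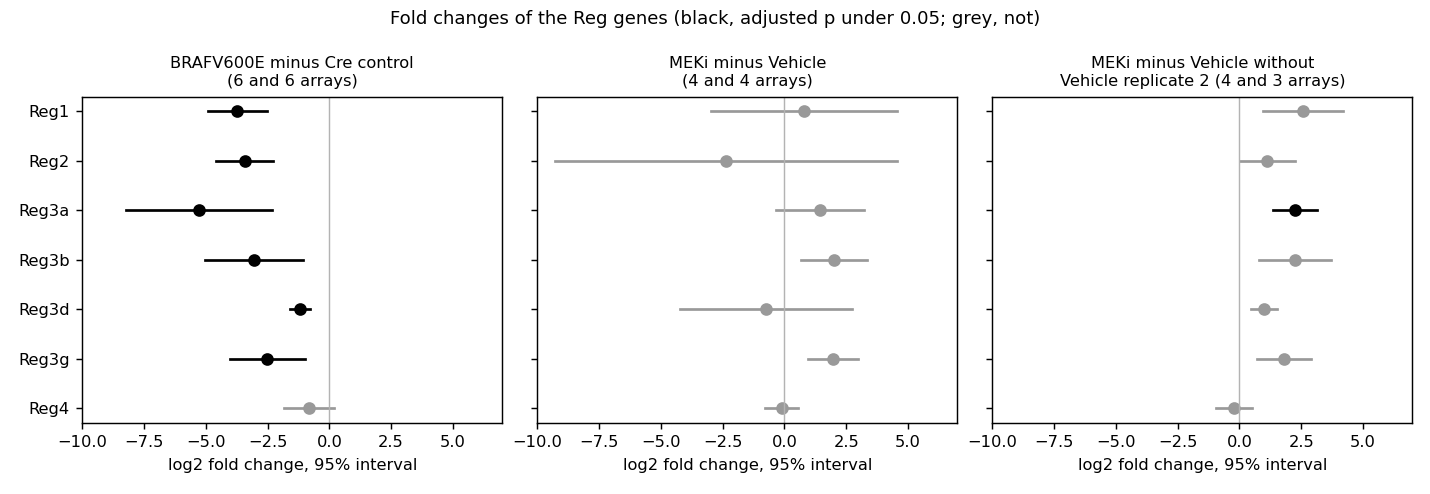
Log2 fold change of each Reg gene with its 95% interval in BRAFV600E minus Cre control, in MEKi minus Vehicle and in MEKi minus Vehicle without Vehicle replicate 2 (limma). Black marks an adjusted p under 0.05. All 6 called values on the left are negative, none is called in the middle, and on the right Reg3a at 2.24 is the called value.

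The members differed in how much single mice varied. In BRAFV600E the SDs of Reg3a (3.69), Reg3b (2.38) and Reg3g (1.67) ranked 6th, 32nd and 128th from the largest among 18868 genes, but without replicate 2 they were 1.49, 0.81 and 0.69. In Vehicle the SD of Reg2, at 7.03, was the largest of all 19177 genes, with Reg1 (3.57) ranked 34th and Reg3d (3.51) 37th, and without Vehicle replicate 2 these SDs were 1.03, 0.59 and 0.31. Among Cre control mice Reg1 and Reg2 were the most variable members, with SDs of 1.11 and 1.18 that exceeded those of 93.05% and 94.35% of the genes, and Reg3a was among the even ones with 0.40. In MEKi every member but Reg1 (SD 1.31) had an SD of 0.49 or less.

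Of the tested genes listed around the cytokine and JAK-STAT3 route to Reg3 transcription, which include inhibitors of it, 1 passed the test in each comparison. Of the list of 22 genes of the interleukin-22, interleukin-6 and interleukin-17 cytokines, their receptors and the JAK-STAT3 route, 18 were tested in BRAFV600E and 1 was called, Il6ra, a receptor chain of interleukin-6, which was lower (log2 fold change −0.89, SE 0.16, limma adjusted p = 0.00533). This list had a median of 0.12, and 13.0% of all genes tested were called in either direction. In MEKi 19 were tested and 1 was called, Socs3, a target and inhibitor of STAT3, which rose from 2.12 ± 0.31 to 3.30 ± 0.19 (SD, n = 4 each; log2 fold change 1.18, limma adjusted p = 0.0225), where 1.93% of all genes were called in either direction. Of 20 tested genes of bacterial sensing, 5 were called lower in BRAFV600E, where 6.55% of all genes were, and none higher, among them Il1b (−1.14), which encodes a cytokine, Tlr6 (−0.81) and Tlr5 (−0.68), which encode receptors for bacterial lipopeptides and flagellin, and Il18r1 (−0.75), a receptor chain of interleukin-18 (adjusted p 0.0153 to 0.0243). In MEKi none of the 20 was called. Of 11 tested genes of type 3 innate lymphoid and T cells, which make interleukin-22, 3 were called lower in BRAFV600E, again beside 6.55% of all genes. They were Cd3g (−0.98), Cd8a (−0.84) and Il7r (−0.76, limma adjusted p 0.0345 to 0.0354 for the 3), and in MEKi none of 12 was called.

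Genes of other secreted antibacterial proteins also fell in BRAFV600E. Of 17 tested, 10 were called lower, where 6.55% of all genes were, and 1 higher, with a median log2 fold change of −1.61. The largest falls were in the pentraxins Mptx1 (−3.61, SE 0.60) and Mptx2 (−3.40, SE 0.65), in the lectin intelectin Itln1 (−2.25, SE 0.40) and in Mmp7, the protease that activates defensins (−2.10, SE 0.39), each without overlap between the groups (adjusted p 0.00304 to 0.00668). In MEKi 1 of 18 was called, where 1.93% of all genes were called in either direction. It was Lypd8, which holds flagellated bacteria off the epithelium and was higher (0.91, SE 0.13, limma adjusted p = 0.0172). In this list 15 of the 18 fitted values were above 0, with a median of 0.74. Of 16 tested genes that are induced together with Reg3 in the inflamed gut, 2 were called lower in BRAFV600E, where 6.55% of all genes were. They were Tifa, an adaptor of bacterial sugar sensing (−3.17, SE 0.54, limma adjusted p = 0.00338), and Saa2, a serum amyloid (−2.23, SE 0.68, adjusted p = 0.0483). In MEKi none of 18 was called.

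Cell type markers also changed. For the counts below, 6.55% of all genes tested were called lower in BRAFV600E and 13.0% in either direction. Of 10 Paneth cell genes, among them Mptx2, Itln1 and Mmp7 again, 5 were called lower and 1 higher in BRAFV600E, with a median of −1.83, and Lyz1, the lysozyme of these cells, was at −2.01 (SE 0.31, adjusted p = 0.00212 in limma). The summed Paneth level was 872 to 1550 times the 75th percentile in Cre control, 255 to 779 in BRAFV600E, 609 to 1110 in Vehicle and 1050 to 1560 in MEKi, and all 10 genes were well above background on every array. Of 10 goblet cell genes, 4 were called lower and 2 higher in BRAFV600E, among the former Muc2, the main gut mucin (−0.82), and Zg16, a lectin that aggregates bacteria (−0.93). Of 15 enteroendocrine genes, 4 were called lower and 2 higher, with Chga at −1.99 and Pyy, a hormone of the distal gut, at 1.99. Of 15 enterocyte genes, 2 were called lower and 2 higher, with Mep1a, a brush border protease, down from a mean level of 3.14 to 0.14 and Alpi, intestinal alkaline phosphatase, up from 4.13 to 5.97. No gene of these 4 lists was called in MEKi. The part of cell composition in the Reg values was not tested.

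The MAPK output genes bear on whether the kinase and the inhibitor acted. Of 12 tested, 10 were called higher in BRAFV600E, with a median of 0.93, and of 13 tested, 7 were called lower in MEKi, with a median of −1.50. Over all genes tested, 13.0% were called in either direction in BRAFV600E and 1.93% in MEKi. Etv4, a transcription factor of the ETS family, rose by 2.50 (SE 0.27, limma adjusted p = 1.84e-04) in the first comparison and fell by 2.95 (SE 0.23, adjusted p = 0.00319) in the second.

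Within groups, some members varied together from mouse to mouse. After each group's mean was subtracted, the Pearson correlation over 20 arrays was 0.91 between Reg3b and Reg3g, 0.88 between Reg3a and Reg3b, 0.91 between Reg1 and Reg2 and 0.96 between Reg2 and Reg3d. Much of this came from single arrays. Without Vehicle replicate 2 and BRAFV600E replicate 2, a choice made after their values had been seen, the correlation over 18 arrays was 0.84 for Reg3b and Reg3g, 0.56 for Reg3a and Reg3b, 0.68 for Reg1 and Reg2 and 0.29 for Reg2 and Reg3d. Reg1 and Reg2 then correlated with Reg3a, Reg3b and Reg3g at −0.29 to 0.11, and Reg1 correlated with Reg3d at 0.47. These values describe arrays that share slides and scaling and carry no test.

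Outside the family, the genes most like each member over the 20 arrays, among 18358 genes, differed in the same way. For Reg2 they were Rnase1 (0.97), Gp2 (0.96) and Cpb1 (0.95), and for Reg3d Gm10334, Cpb1 and Pdia2 (0.98 each), of which Gp2, Cpb1 and Pdia2 are known from pancreatic acinar cells. For Reg1 they were Tyro3 (0.90), Gp2 (0.89) and Ero1b (0.85). Without Vehicle replicate 2 none of these genes was among the 3 most alike for the same member. Pipox, a peroxisomal oxidase, was among the 3 genes most like Reg3a (0.88), Reg3b (0.95) and Reg3g (0.82), and for Reg3b it stayed so over the 18 arrays without the pair that stood apart (0.83). Reg4 was most like Cyp3a57 (0.87), Cyp3a25 (0.86) and Sis (0.84), genes of enterocytes or liver, none of which was among its 3 most alike over those 18 arrays. Nor was Pipox then among those of Reg3a or Reg3g.

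**Figure D5:**
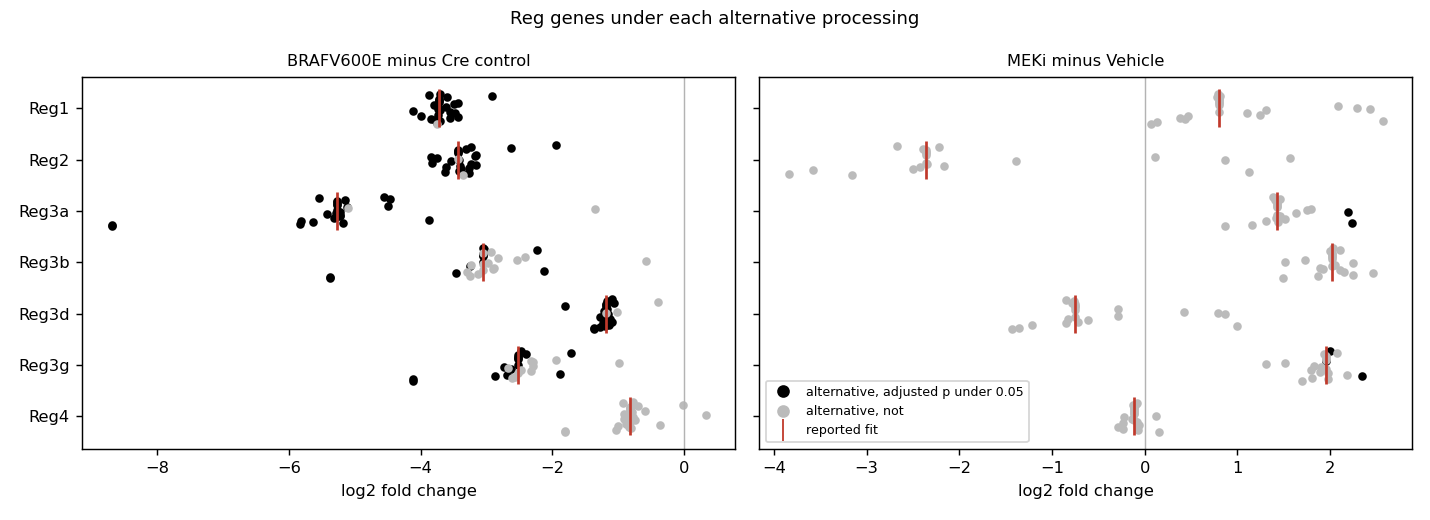
Log2 fold change of each Reg gene under each alternative processing, filter, covariate and left-out array. Black points passed an adjusted p under 0.05, grey points did not and the red line is the reported fit. In BRAFV600E the values of the 6 called members stay below 0 throughout, whereas in MEKi Reg2, Reg3d and Reg4 lie on both sides of 0.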

How the data were processed

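Total RNA of intestinal tissue from 20 mice was labeled with Cy3 and hybridized to 1-color Agilent SurePrint G3 mouse arrays. Per the file headers, the authors extracted each array with Agilent Feature Extraction (version 10.5.1.1 in the submitters' processing notes), and the deposited intensity is its background-subtracted processed signal on a linear scale, not normalized between arrays. The authors' deposited value table held the same intensity, to within 0.5% for 100.0% of spots, and served as the alternative without scaling. The deposited files also hold marks of another kind (well above background, outlier), used as filters.

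Control and outlier spots were left out, each array's 75th percentile was subtracted from log2 intensity and copies of a probe were averaged. Of 56605 probes, 34023 were named by accession, 9993 by symbol and 318 by synonym from RefSeq (GRCm38.p6), and 12271 without a name were not tested. Where a gene had several probes, the brightest by mean level over all 20 arrays was used. A gene was tested when well above background on at least 6 of 12 or 4 of 8 arrays. limma (version 3.58.1, R 4.3.3, lmFit and eBayes, two-sided) was fitted over all genes of each comparison without covariates, with Benjamini-Hochberg adjustment over all genes and a call at an adjusted p under 0.05. The fit was checked on simulated data. The 8 arrays of MEKi and Vehicle were a separate experiment and were fitted apart.

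Groups came from the labels. Replicate numbers follow accession order, name arrays and pair none. The labels do not say how mice were housed or bred, so p-values measure the spread between these samples. Precision is limited by the number of arrays.

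The members and the gene lists were chosen with earlier results of these data known, and lists were written from general knowledge. Named list genes were the called ones, at most 4 with the largest change per list and comparison, and for each member the 3 genes with the highest correlation of group-centered levels. Alternatives covered background correction, scaling, filters, the choice of probe, variance model, array weights, covariates, slides and single arrays left out. Protein sequences were not analysed here.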

Additional observations from a re-analysis of the deposited data

Results flagged for a closer look

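In 9 of 32 sets of arrays (8 probes in 4 groups), 1 array lay farther from the others than the 95% critical value of Dixon's test allows, where chance gives about 1 in 20 of independent sets. These sets are not independent, since they reuse the same 20 arrays for genes that varied together. All flags but the one in MEKi lie on Vehicle replicate 2 or BRAFV600E replicate 2. In Vehicle, replicate 2 was far above the other 3 arrays for Reg1 (7.68, others 0.18 to 1.27), Reg2 (8.03, others −6.86 to −4.82) and both Reg3d probes (4.91, others −2.36 to −1.74, and 3.56, others −6.12 to −4.68). In BRAFV600E, replicate 2 was far below the other 5 arrays for Reg3a (−7.22, others −0.68 to 2.66), Reg3b (−0.05, others 4.55 to 6.66), Reg3g (1.93, others 5.10 to 6.84) and Reg4 (−0.31, others 1.97 to 3.04). In MEKi, replicate 2 was above the other 3 for Reg4 (3.22, others 2.70 to 2.75), a gap of under 1 on the log2 scale.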

How the results depend on the processing

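Against Cre control, the 6 called members stayed lower in BRAFV600E in all 28 alternatives. The count called lower was 3 with the acinar pancreas mean as a covariate and 2 with the distal small intestine mean, and 4 to 6 with single arrays left out. Reg3b and Reg3g also lost the call with the Y-linked mean as a covariate (limma adjusted p = 0.0765 and 0.0576) and with array weights (0.0581 and 0.0508). Reg3b lost it too with arrays centered on the median (0.0541), with no filter on dim probes (0.064) and in the fit over every probe (0.0543). Among the 27 alternatives fitted by gene, Reg3b was called in 12 and Reg3g in 16. Reg4 turned to 0.33 with the distal mean as a covariate. In MEKi, 1 member was called higher with normexp background correction, with a trended and robust variance and with the pancreas covariate, and 0 to 1 with single arrays left out. Values changed sign there for genes that were not called: with array weights Reg2 (0.11) and Reg3d (0.42), with the Y-linked mean as a covariate Reg2 (1.57), Reg3d (0.79) and Reg4 (0.12), with the pancreas covariate Reg2 (0.87) and Reg3d (0.87), without Vehicle replicate 2 Reg2 (1.13) and Reg3d (1.00), and without Vehicle replicate 4 Reg4 (0.15). Over the fits that left out 1 array, Reg2 ran from −3.84 to 1.13, Reg3d from −1.43 to 1.00 and Reg4 from −0.29 to 0.15. The cause was not tested. Over all genes, 513 (distal covariate) to 9258 (no scaling) were called in BRAFV600E, 2454 in the reported fit, and 54 (Y-linked covariate) to 1200 (array weights) in MEKi, 370 in the reported fit. Of the calls in BRAFV600E, 49.6% were higher in the reported fit, 98.1% with no scaling, 72.7% with arrays centered on the median and 33.0% with normexp correction, and these moved the median of all genes from −0.02 to 0.79, 0.10 and −0.14. With all 20 arrays in 1 fit, Reg2 (adjusted p = 0.162) and Reg3d (adjusted p = 0.332) lost the call. Probes near background, such as that of Reg2 in BRAFV600E, limit how well the size of a fall is known. No paired analysis was possible because the replicate numbers only name arrays in accession order and no label ties an array of 1 group to an array of another.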
